A study of Mus musculus with 4 samples.

Results

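Described here are the regions of the mouse autosomes at which open chromatin was called in cells negative for MERVL and Zscan4c and not in cells positive for both. Joining all peaks of 4 ATAC-seq libraries wherever they shared 1 bp or more gave 50231 union regions, of which 47709 lay on chromosomes 1 to 19. The DR-/--only regions are the 668 of these 47709 (1.40%) with a peak in each DR-/- library and none in either DR+/+ library. They were chosen by these calls, so their number and their strength in the DR-/- lists are descriptions and carry no test. A further 23 regions with the same pattern lay outside chromosomes 1 to 19 and were left out.

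All libraries came from J1, a mouse embryonic stem cell line of 129SV strain origin, grown feeder-free on gelatin in serum and leukemia inhibitory factor. The DR-/- cells were the MERVL-, Zscan4c- population and the DR+/+ cells the MERVL+, Zscan4c+ population, with 2 libraries each. No other genotype or treatment is named in the labels. How the populations were separated, and whether the libraries of each stem from different cultures, is not stated in the labels, so p-values over libraries measure a spread that may be technical. In such pooled cells, fewer cells with an open site and less opening per cell cannot be told apart.

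ATAC-seq marks DNA that the transposase Tn5 can reach, mostly promoters, enhancers and other sites bound by transcription factors. In embryonic stem cells many accessible enhancers are held by pluripotency factors. A small share of such cells passes through a state likened to the 2-cell embryo, in which long terminal repeats of the retrovirus MERVL act as promoters and the Zscan4 genes are expressed. DR-/- cells stand for the ordinary state. Sites called in them alone are thus sites at which a peak was missing from the list of the 2-cell-like cells. Which genes or repeats lie at these sites, and their sequence, was not analysed here, because the peaks are placed on mm9 and the gene and promoter tables used here are of GRCm38. For the same reason the labelled populations were not checked at MERVL and Zscan4 loci.

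The DR-/- lists had 21630 (replicate 1) and 24432 peaks (replicate 2), and the DR+/+ lists 40933 (replicate 1) and 26866 (replicate 2). Fold enrichment and p-value together returned a whole number of reads, to within 0.001, at the summit of at least 99.996% of the peaks of each list, with a median of 15 to 16 reads per list. Since the DR+/+ lists are longer, absence from both is a stricter condition than absence from both DR-/- lists. By the mirrored rule, 4256 autosomal regions (8.92%) were DR+/+-only. Regions called in exactly 1 library of each population numbered 4109, and regions called in all 4 libraries, termed common, 11850. Both serve as reference classes below, and the former rests on 2 lists per region, as the DR-/--only class does.

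The DR-/--only regions were mostly weak sites. In the list of DR-/- replicate 1 their q-values had a median percentile of 31.4 (interquartile range 15.5 to 47.9), where 100 is the strongest peak of the list. In DR-/- replicate 2 the median was 33.2 (17.2 to 51.9). The corresponding medians of common regions were 68.3 and 71.6, and those of regions called in 1 library of each population were 27.5 and 29.7. The summits of DR-/--only regions held 8 to 29 reads in replicate 1, with a median of 13, and 8 to 37 reads in replicate 2, with a median of 14. Fold enrichment over local background, the authors' value for each peak, was 3.10 to 8.97 in replicate 1 and 2.73 to 9.03 in replicate 2. The fewest reads at the summit of any peak with the lowest background were 8 in each DR+/+ list. Every DR-/--only region had at least that many in both DR-/- libraries. The same minimum was 7 and 8 in DR-/- replicates 1 and 2, so being called there nearly fixed this outcome. Whether these sites had enough reads to be called in DR+/+ cells was not tested.

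How often a site of DR-/- cells lacked a DR+/+ peak fell steeply with its strength. Of the 14516 autosomal regions called in both DR-/- lists, 668 (4.60%) were DR-/--only and 1998 held a peak in 1 DR+/+ list. Among the 187 weakest, with a mean percentile of at most 10 in the 2 DR-/- lists, 47 were DR-/--only (25.1%, 95% Wilson interval 19.5 to 31.8%). The share was 10.0% (8.63 to 11.6%) at percentiles of 30 to 40, 3.74% (2.95 to 4.74%) at 50 to 60 and 0.323% (0.148 to 0.703%) at 70 to 80. Above the 90th percentile a single region of 1800 was DR-/--only (0.0556%, 0.00981 to 0.314%). These intervals, and those that follow, cover counting error only. Since the absence of a DR+/+ peak defines the class, this course describes the rule at work and is no evidence of a difference between the populations.

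**Figure D1:**
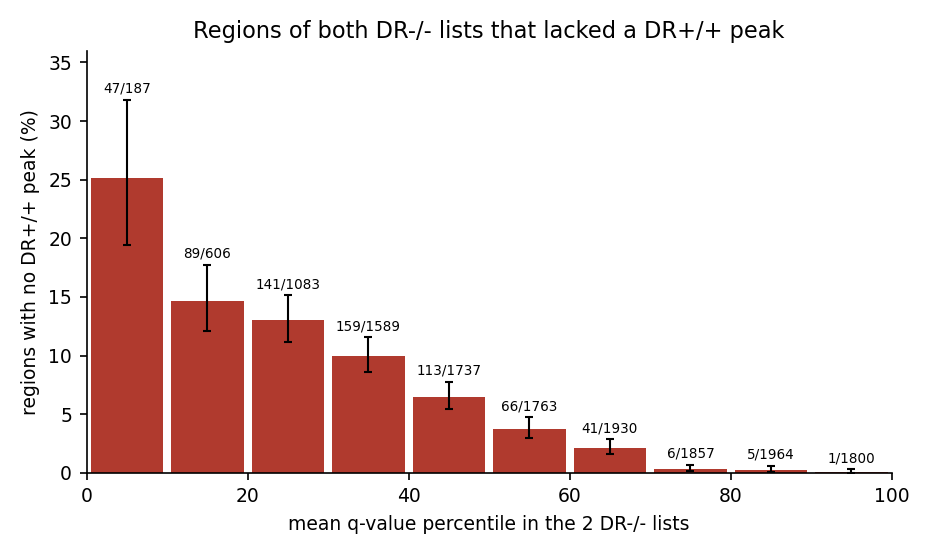
Share of regions called in both DR-/- lists that held no DR+/+ peak (percent, y axis) by their mean q-value percentile in these lists (x axis, bins of 10), with 95% Wilson intervals and the counts above each bar. The share falls from 25.1% in the weakest bin to 0.0556% in the strongest.

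At the edge of the rule, the 4 DR-/--only regions with the closest DR+/+ peak were 0 to 7 bp away from it. On the other side, the 4 regions with the smallest overlap between DR-/- and DR+/+ peaks, and so not counted, shared 4 to 6 bp. The 4 weakest members had a −log10 q-value of 1.36 to 1.63 in their weaker DR-/- list. The 4 uncounted regions with the weakest single DR+/+ peak had a −log10 q-value of 1.52 to 1.89 there, on 9 to 12 reads.

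The 12 strongest DR-/--only regions lay on 9 chromosomes, were 109 to 259 bp wide and had mean percentiles of 71.7 to 91.9. The first lay at chr9:105974114-105974262 of mm9. Its summit held 20 and 23 reads in DR-/- replicates 1 and 2, and the 2 summits were 8 bp apart. The nearest DR+/+ peak lay 31.2 kb away, in replicate 1, and the nearest common region 131 kb away. It had 3 other regions within 50 kb, as many as the median member, and none of them was common. The site at chr4:88405666-88405789 lay in one of the densest neighbourhoods. It had 17 other regions within 50 kb, 8 of them common, and DR+/+ peaks at 794 and 818 bp. Its summit held 23 and 27 reads. The site at chr3:97889790-97889960, with 20 and 21 reads, had no other region within 50 kb and both DR+/+ lists were empty for 61.2 kb around it. The site at chr6:60359210-60359438 held 28 and 22 reads and lay 1052 bp from a common region of 216 bp, the nearest of any of the 12. The site at chr9:81118703-81118841 held 20 and 16 reads and lay 267 kb from a common region 2166 bp wide, with no region of any kind within 50 kb.

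Of the remaining 7, those at chr5:131653168-131653426 and chr7:125555987-125556140 had no other region within 50 kb either. Their nearest DR+/+ peaks were 126 and 115 kb away. The site at chr14:70999618-70999748 was the closest of the 12 to a DR+/+ peak, which lay 124 bp away in replicate 1 and measured 108 bp, the shortest width in that list. The other 4 lay at chr13:14074244-14074374, chr10:69685115-69685223, chr6:31546125-31546299 and chr5:34979738-34979903, with the nearest DR+/+ peak 5.84 to 32.0 kb away. In all, 2 of the 12 had a DR+/+ peak within 1 kb and 1 had a common region within 10 kb. The summits of the 2 DR-/- libraries lay within 20 bp of each other in 11 of the 12. Their median separation was 9 bp, against 32.5 bp over all 668 regions. The 12 were picked for strength. With lists limited to their stronger 50%, the share of summit pairs within 50 bp also rose, to 76.6% from 65.9%.

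In the median, the regions lay about as far from a common region as common regions lay from each other, and nearer than the DR+/+-only regions did. Their distance to the nearest common region ranged from 22 bp to 1.12 Mb, with a median of 44.5 kb (interquartile range 14.1 to 123 kb). Over all autosomal regions the median was 53.0 kb, and the share lying within 10 kb of another common region was 16.2%. Of the DR-/--only regions 126 of 668 did so (18.9%, 95% Wilson interval 16.1 to 22.004%). For regions called in 1 library of each population the median distance was 47.6 kb and the share within 10 kb 17.2% (16.1 to 18.4%). Common regions lay 45.0 kb from the next common region in the median. DR+/+-only regions lay 73.9 kb away in the median, with 12.9% (11.9 to 13.96%) within 10 kb. Beyond 100 kb from a common region lay 202 DR-/--only regions (30.2%), against 41.5% of the DR+/+-only ones.

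**Figure D2:**
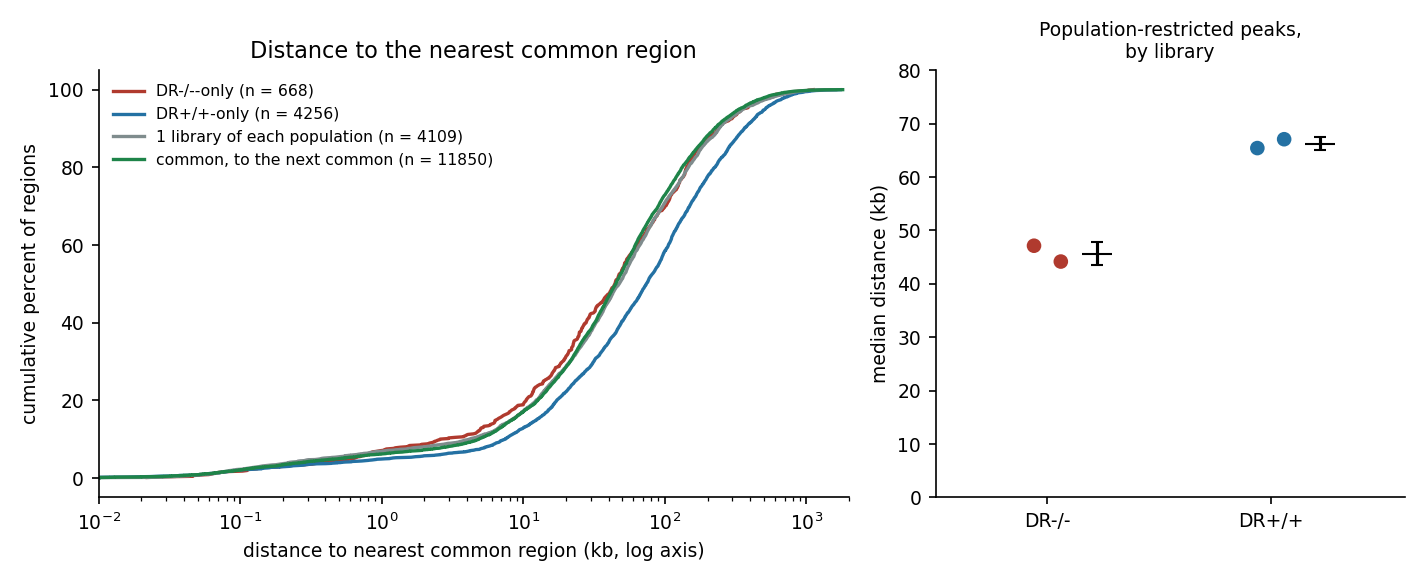
Left, cumulative percent of regions (y axis) by distance to the nearest common region (x axis, kb, log axis, distances under 10 bp drawn at 10 bp) for 4 classes; right, the median distance (kb) of peaks with no overlap in the other population, 1 point per library, with the mean and SD (n = 2). The DR-/--only curve runs beside those of common regions and of regions called in 1 library of each population, with medians of 44.5, 45.0 and 47.6 kb, and the DR+/+-only curve lies to the right with 73.9 kb.

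A test over libraries was made on each library's own peaks that shared no base with a peak of the other population. The DR-/- libraries had 2766 (replicate 1) and 3493 (replicate 2) such peaks, and the DR+/+ libraries 17418 (replicate 1) and 8081 (replicate 2). Their median distance to a common region was 47.1 and 44.2 kb in the DR-/- libraries and 65.4 and 67.1 kb in the DR+/+ libraries. The populations did not overlap, and the means were 45.7 ± 2.10 kb in DR-/- and 66.3 ± 1.17 kb in DR+/+ (SD, n = 2 each). The difference of 20.6 kb gave p = 0.33 when the 4 library labels were permuted (exact test, two-sided), and 0.33 after Benjamini-Hochberg adjustment over the 3 library-level tests. That is the smallest p this design allows, so it cannot pass 0.05. The restricted peaks were set by the true labels and were not redrawn for permuted ones, so no conclusion is drawn from this p. The difference was 6.96 kb without DR-/- replicate 2 and 11.96 kb without DR-/- replicate 1, and 25.8 and 17.9 kb without DR+/+ replicates 1 and 2. The DR+/+ lists held more and, in replicate 1, many more restricted peaks, and the part of list length in this distance was not tested beyond lists of equal length, where the difference was 28.0 kb.

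At the near end, 47 DR-/--only regions (7.04%) lay within 1 kb of a common region, compared with 6.37% of all autosomal regions. The closest was chr15:100445911-100446056, 22 bp from a common region of 386 bp. Next came chr13:66091678-66091868, 27 bp from a common region of 626 bp, followed by chr11:66831742-66831991 and chr17:85489552-85489723, each at 46 bp. All 4 ranked below the 40th percentile on average. At the far end lay chr11:81711227-81711389, 1.12 Mb from a common region and 277 kb from any DR+/+ peak. The site at chr1:125697841-125698037 had its nearest common region 1028 kb away and its nearest DR+/+ peak 497 kb away, the longest such distance of the 668. Both isolated sites rested on 9 to 12 reads. The other two of the 4 farthest, chr8:22133755-22133968 and chr19:49535054-49535312, had DR+/+ peaks 1.95 kb and 13 bp away, so distance from common regions did not go with distance from DR+/+ peaks there.

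The common region nearest to a DR-/--only region was of ordinary width. Its median was 371.5 bp (interquartile range 286.5 to 498 bp), against 373 bp over all autosomal regions, 392 bp for DR+/+-only regions and 366 bp for all common regions. In the list of DR-/- replicate 1 the 639 common regions nearest to the members had peaks of 224 bp in the median, and all common regions had 219 bp. The widths were 239 and 236 bp in DR-/- replicate 2, 295 and 302 bp in DR+/+ replicate 1, and 254 and 255 bp in DR+/+ replicate 2. Taken as a ratio within each list, neighbours of DR-/--only regions were slightly wider than the average in both DR-/- lists, at 1.02 and 1.01, and slightly narrower in both DR+/+ lists, at 0.977 and 0.996. The means were 1.02 ± 0.00716 and 0.986 ± 0.0136 (SD, n = 2 each). The 639 common regions were chosen as nearest to members, so with the true labels, and were not redrawn for permuted ones. The difference of 0.0313 gave p = 0.33 in the exact two-sided permutation test, again the smallest possible, and no conclusion is drawn from it. It was 0.00246 without DR+/+ replicate 1 and 0.00547 without DR-/- replicate 2, and 0.00275 in the stronger 50% of each list, each with p = 1 in the exact permutation test.

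Regions were about as dense around DR-/--only sites as around most others. Within 50 kb of a DR-/--only region lay 3.14 other union regions on average (median 3, range 0 to 22), and 71 (10.6%) had none. The mean was 3.06 over all autosomal regions, 3.32 around common regions, 3.22 around regions called in 1 library of each population and 2.65 around DR+/+-only regions. Of the DR+/+-only regions 16.4% had none. Common regions alone numbered 0.856 within 50 kb of a DR-/--only region and 0.656 within 50 kb of a DR+/+-only one. Counted by library over restricted peaks, the mean number of common regions within 50 kb was 0.863 and 0.904 in the DR-/- libraries and 0.688 and 0.689 in the DR+/+ libraries. The median was 1 in both DR-/- and 0 in both DR+/+ libraries. This difference of 1 gave p = 0.33 in the exact permutation test, 0.33 after adjustment. Here too the restricted peaks were not redrawn for permuted labels, so no conclusion is drawn from that p. Without DR-/- replicate 1 this difference of medians was 0, and without DR-/- replicate 2 it was 0.5. It was also 0 with lists of equal length and in the stronger 50% of each list.

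The densest neighbourhood held a pair of DR-/--only regions on chromosome 7, at 67003038 to 67003239 and 67034357 to 67034497. Each had 22 other regions within 50 kb, and their summits held 25 and 30 reads, and 29 and 37 reads, the highest totals of all members. Their fold enrichment over local background was 3.14 to 4.07. The site at chr5:14914491-14914648, with 16 neighbours, had 23 and 25 reads at a fold enrichment of 3.28 and 3.41.

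A DR+/+ peak lay close to a minority of the DR-/--only regions, much as for regions called in 1 library of each population. The nearest DR+/+ peak was 10.1 kb away in the median (interquartile range 2.25 to 26.5 kb). It lay within 1 kb in 129 regions (19.3%) and within 200 bp in 71 (10.6%), and beyond 100 kb in 34 (5.09%). Regions called in 1 library of each population give the same measure against the 2 lists they lack, with 16.8 to 25.3% within 1 kb and 9.13 to 15.1% within 200 bp over the 4 pairings. The DR-/--only shares lie inside both ranges. For DR+/+-only regions 11.5% had a DR-/- peak within 1 kb and 5.94% within 200 bp, but the DR-/- lists hold 43914 autosomal peaks in all, compared with 64184 in the DR+/+ lists. Replicate 1 of DR+/+, the longest list, had a peak within 1 kb of 119 regions and replicate 2 of 75.

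**Figure D3:**
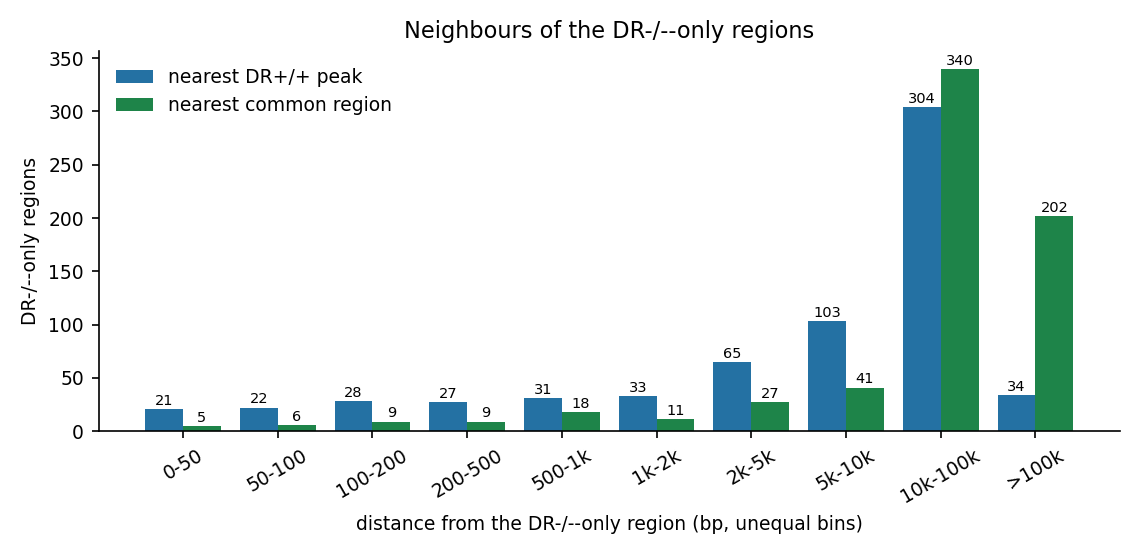
Number of DR-/--only regions (y axis) by distance to the nearest DR+/+ peak and to the nearest common region (x axis, bp, bins of unequal width). A DR+/+ peak lies within 1 kb of 129 and a common region within 1 kb of 47 of the 668 regions, while 34 and 202 have none within 100 kb.

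The DR+/+ peaks nearest to the members were of several kinds. For all 668 regions the nearest one belonged to a common region in 214 cases (32.0%), to a region called in DR+/+ replicate 1 alone in 200 (29.9%) and to a DR+/+-only region in 48 (7.19%). Among all 42198 autosomal regions with a DR+/+ peak these kinds made up 28.1%, 30.3% and 10.1%. Within 200 bp the shares were 25.4% (18 of 71), 35.2% (25 of 71) and 5.63% (4 of 71). A DR+/+-only region was thus the nearest one with a DR+/+ peak for 4 members within 200 bp and for 5 within 1 kb.

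The rule allows no DR-/- summit of a member to lie under a DR+/+ peak. In the 71 regions with a DR+/+ peak within 200 bp, the distance from the mean DR-/- summit to the DR+/+ summit was 136.5 to 521.5 bp, with a median of 275 bp. None of the 668 had a DR+/+ summit within 100 bp, and 13 had one within 200 bp. Non-overlap sets a lower limit to this distance, as the shortest peaks measured 103 to 115 bp. The median percentiles of these 71 regions in the DR-/- lists were 19.96 and 24.9, those of all 129 with a DR+/+ peak within 1 kb were 27.8 and 33.99, and those of the 539 with none within 1 kb were 31.6 and 33.1. The 129 thus ranked below the 539 in replicate 1 and slightly above them in replicate 2. The closest was chr5:89634341-89634526, which touched a DR+/+ replicate 1 peak of 152 bp without sharing a base. At chr7:152220412-152220712 peaks of both DR+/+ lists lay 7 and 44 bp away, and the DR-/- summits, on 13 and 10 reads, were 119 bp apart. At chr13:41554127-41554248 and chr10:93296397-93296550 the gaps were 2 and 7 bp, to peaks of 1 DR+/+ list each.

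The DR-/- summits lay about as close together in these regions as summits did in regions called in 1 library of each population. Both classes need 2 peaks that overlap, which limits this distance in advance. The 2 summits were 32.5 bp apart in the median (interquartile range 13 to 64.3 bp, highest 235 bp), and 440 of 668 pairs (65.9%, 95% Wilson interval 62.2 to 69.4%) lay within 50 bp. In common regions the same libraries were 37 bp apart in the median, with 60.9% (60.1 to 61.8%) within 50 bp. Over the 4 pairings of 1 library of each population the shares were 62.4 to 65.8%, and in DR+/+-only regions 55.4% (53.9 to 56.9%). Median widths were 181 bp for DR-/--only, 192 bp for the mixed pairs, 228 bp for DR+/+-only and 366 bp for common regions. Whether region width bears on these shares was not tested. The 2 DR-/- peaks of a member overlapped by 104 bp in the median, which was 92.4% of the shorter peak, and 66 members (9.88%) shared less than 50% of it. Summits fell near the middle of their peaks, at 47.6% and 48.1% of the width in the median in replicates 1 and 2, and within the central 25 to 75% in 547 of 668 regions in either list. In common regions the medians were 48.8% and 48.7%.

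**Figure D4:**
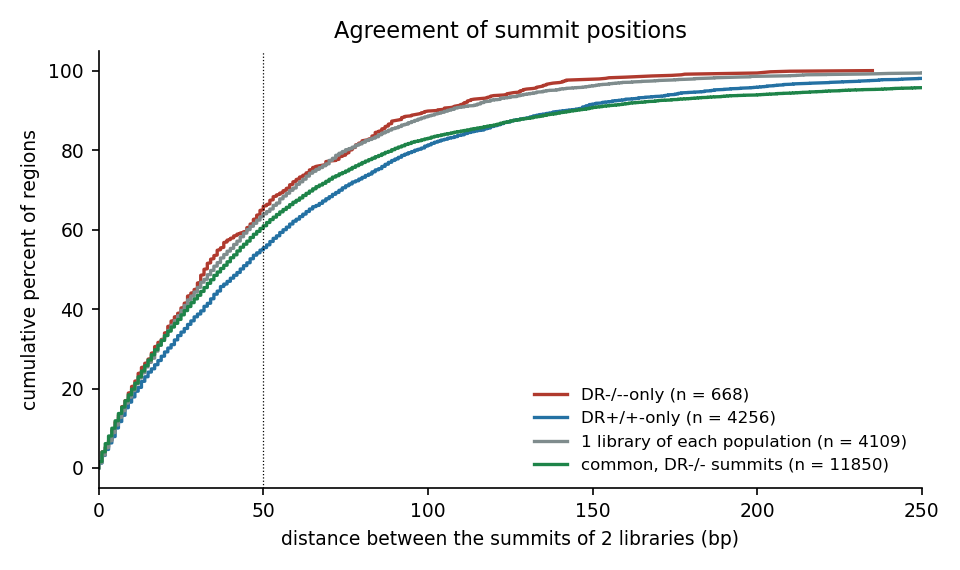
Cumulative percent of regions (y axis) by the distance between the summits of 2 libraries (x axis, bp), with a dotted line at 50 bp. At 50 bp the DR-/--only curve stands at 65.9%, the common regions at 60.9% and the DR+/+-only regions at 55.4%. Regions called in 1 library of each population have 62.4 to 65.8% within 50 bp, depending on which libraries are paired.

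The 4 widest members were of both kinds, with a broad peak in 1 library or with peaks that met only at their ends. The regions at chr10:21549039-21549444 and chr16:6964978-6965383 were 406 bp wide, with peaks of 168 and 406 bp in replicates 1 and 2 of the first and 256 and 153 bp of the second. Those at chr1:17135383-17135771 and chr1:135330906-135331265 were 389 and 360 bp wide, with peaks of 374 and 138 bp and of 218 and 146 bp. The first of each pair of sites thus had 1 broad peak, and in the second of each the 2 peaks barely overlapped. In all 4 the summits of the 2 libraries lay over 100 bp apart, at 109 to 204 bp. The narrowest member was 104 bp wide, the shortest peak of DR-/- replicate 1.

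The regions were spread over all 19 autosomes. Their share of union regions ranged from 0.926% on chromosome 6 (25 of 2700, 95% Wilson interval 0.628 to 1.36%) to 1.98% on chromosome 9 (48 of 2424, 1.497 to 2.62%), around 1.40% in all. Chromosome 11, with 50 of 2689 (1.86%, 1.41 to 2.44%), and chromosome 18, with 28 of 1518 (1.84%, 1.28 to 2.65%), were next. Chromosomes 3 and 8 had low shares of 0.990% and 1.00%. The intervals of chromosomes 6 and 9 do not overlap, but these are the extremes of 19, and no test was made.

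**Figure D5:**
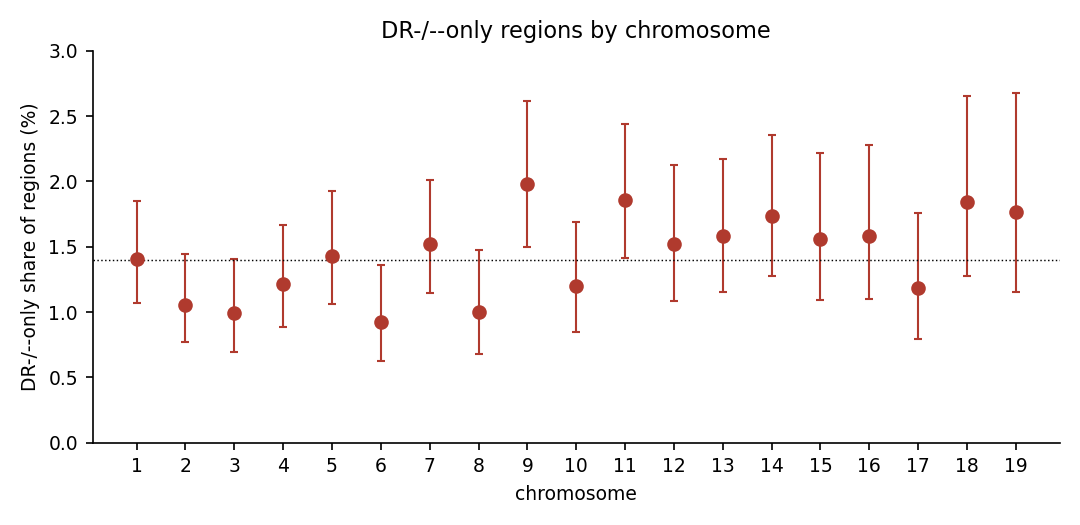
DR-/--only share of union regions (percent, y axis) on each autosome (x axis), with 95% Wilson intervals, and a dotted line at the share over all autosomes of 1.40%. Shares run from 0.926% on chromosome 6 to 1.98% on chromosome 9.

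The spacing of the DR-/--only regions depends on their number, and it was not compared with another set of the same size. The nearest other member was 1.01 Mb away in the median, and 29 of 668 (4.34%) had one within 50 kb. Of the 1 Mb windows that held a member, 456 held 1, 85 held 2 and 14 held 3, with none holding more. The first 4 windows with 3 members lay on chromosome 3 at 153000001 to 154000000, chromosome 7 at 105000001 to 106000000 and at 129000001 to 130000000, and chromosome 8 at 123000001 to 124000000. They held 20 to 29 union regions each. On chromosome 8, the members at 123190112 to 123190273 and 123195731 to 123196030 were 5457 bp apart, on 16 and 18 and on 21 and 15 reads. In the window of chromosome 7 that starts at 105000001, the member at 105326372 to 105326587 had peaks of both DR+/+ lists at 45 and 23 bp, whereas the one at 105918742 to 105918977 was 44.7 kb from any.

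Pairs of members within 1 kb of each other occurred at 4 places, which were picked out after their values were seen. On chromosome 18, regions at 68316928 to 68317107 and 68317198 to 68317388 were 90 bp apart. Their summits held 14 and 13 reads and 11 and 16 reads in DR-/- replicates 1 and 2, and the nearest DR+/+ peak was 142 kb away. On chromosome 7, regions at 30767922 to 30768146 and 30768692 to 30768853 were 545 bp apart. They ranked higher in replicate 2 (percentiles 73.4 and 54.2) than in replicate 1 (19.7 and 3.61), and the nearest DR+/+ peak was 10.0 kb away. On chromosome 9, regions at 97014036 to 97014221 and 97014736 to 97015014 were 514 bp apart and 2.26 kb from a common region of 307 bp. On chromosome 6, the strong site at 60359210 to 60359438 had a weaker one, at 60360189 to 60360378, at 750 bp. The weaker one lay 112 bp from the same common region of 216 bp.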

How the data were processed

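Open chromatin was measured by ATAC-seq in 4 libraries of J1 cells, 2 per population, grouped and numbered by their titles. The build is mm9, and the tools named are Bowtie2 2.3.0, SAMtools 0.1.19 and FastQC 0.10.1, per the submitters' processing notes. Not given in the sources used here are the peak caller, any Tn5 shift, and how duplicates and reads with several matches were handled, which decides what can be called in repeats. The authors deposited 1 peak list per library, with a score, a fold enrichment (ratio), a −log10 p-value, a −log10 q-value and a summit offset per peak. These deposited values were used within a list only. No deposited −log10 q-value lay under 1.31. Read depth is not in the lists. Reads at the summit were recovered from the fold and the Poisson p-value, to within 0.001, for at least 99.996% of each list.

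Computation used Python 3.11.15, pandas 2.3.3, NumPy 2.4.6, SciPy 1.17.1 and Matplotlib 3.10.9. Distances are between region edges. Neighbours within 50 kb were counted by midpoint. Interval code was tested on simulated data. Regions named are the 12 strongest by mean percentile, the 4 nearest to and farthest from a common region, the 4 densest, the 4 nearest to a DR+/+ peak, the 4 widest and 4 windows. The members, measures and tests were chosen with earlier results of these data known. Shares carry 95% Wilson intervals. No test was made over regions. The 3 library-level tests are exact permutation tests of finished library values. The peaks and regions measured were chosen with the true labels and not redrawn, so no conclusion is drawn from these p-values. The same holds for the replicate block. Alternatives were a q-value of 0.01, lists of equal length, lists limited to their stronger 50%, reciprocal overlap of 50%, merging over 500 bp, other distances, a replicate block, and leaving out each library.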

Additional observations from a re-analysis of the deposited data

How the results depend on the processing

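The number of DR-/--only regions depended on the lists and on what counts as overlap. It was 1617 with 50% reciprocal overlap, 1461 with lists of equal length, 338 with the stronger 50% of each list, and 980 to 3493 with 1 library left out (2411 without DR+/+ replicate 1, 3493 and 2766 without DR-/- replicates 1 and 2). At a q-value of 0.01 it was 653. With 1 library left out the rule used the remaining lists only. Without a DR-/- replicate, a member thus needed a peak in only 1 DR-/- list. A common region then needed a peak in every list kept. In the same order of reciprocal overlap, equal length and stronger 50%, the median distance to a common region was 77879, 54069 and 109636 bp. It was 47224 bp with merging over 500 bp, and 36330 to 43226 bp with 1 library left out. The reference classes were not measured again in these settings, so whether their distances shifted too was not tested. The share with a DR+/+ peak within 1 kb was 75.1% with reciprocal overlap, where peaks sharing under 50% also count as near. It was 14.1% with equal length and 9.47% in the stronger 50%. Merging gave 5.29%, but it leaves no member with a DR+/+ peak within 500 bp and so lowers this share by construction. With 1 library left out the share was 14.7 to 22.1%. The share within 10 kb of a common region was 13.7% with reciprocal overlap, 9.76% in the stronger 50%, 15.5% with merging and 20.2 to 22.04% with 1 library left out. The common neighbour measured 240, 398.5 and 411 bp in these 3 settings, and 311 to 338 bp with 1 library left out. Leaving out a library merges fewer lists and also lets a common region rest on fewer lists. The part of each in this width was not tested. The 240 bp is the width of a DR-/- replicate 1 peak, as reciprocal overlap forms no union regions, so it is a different measure. The summit share was 69.8%, 76.6% and 61.0%. The median number of neighbours was 1 in the stronger 50%, 2 with equal lengths or merging, 2 to 3 with 1 library left out, 1 within 10 kb and 12 within 250 kb. It has no counterpart under reciprocal overlap.

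In a setting chosen after seeing the data, the 539 regions with no DR+/+ peak within 1 kb had a median distance of 50025 bp, 13.2% within 10 kb, neighbours of 376 bp and a median of 2 regions within 50 kb. The library-level difference in median density was 0 with equal lengths and in the stronger 50%, and 0 to 1 with 1 library left out. The mean, also added later, differed by 0.195 (p = 0.33, exact permutation test, as with the median). A replicate block gave the same differences of -20598.2 bp, 1 and 0.0313, each with an exact sign-flip p of 0.5, the smallest that 2 pairs allow. The labels do not say that equal numbers pair libraries, and the deviations of same-numbered libraries in summit pileup over common regions had a correlation of -0.0192. Of 96 values under alternatives 50 stayed close to the reported value, that is within 1.5 times for the number of regions, within its Wilson interval for a share, within the SD of the 2 DR-/- libraries for a median, and in the same direction for a difference between libraries. The median summit of a DR-/--only region rested on 13 and 14 reads, which limits every call of presence or absence.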
